A study of Homo sapiens with 18 samples.

Results

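The 10 genes described here encode the actins and the proteins that sit on actin filaments in contractile cells: ACTA2, ACTG2, ACTB, ACTG1, TAGLN, CNN1, CALD1, TPM1, TPM2 and MYL9. They were chosen by name from the 38716 gene symbols listed, and all 10 passed the filter on low counts in both assays. Ribosome profiling (Ribo-seq, in which the mRNA fragments that ribosomes protect are sequenced as footprints) and poly(A) mRNA-seq were each measured in 9 libraries, with 3 replicates per condition. All cells were IMR90, primary fibroblasts from human fetal lung. Young cells were proliferating at low passage, old cells had reached replicative senescence at high passage, and ICM cells were low-passage cells kept for 6 days in inflachromene (ICM), a small molecule that binds HMGB1 and HMGB2. Per the study's methods, replicates were lysed independently in cycloheximide and a part of each lysate was kept for mRNA-seq, so that a footprint library and an mRNA library of the same condition and number share a lysate. The cells came from 1 isolate, which limits the groups as a model of other fibroblasts. Both comparisons with young cells use the same young libraries.

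Actin is the building block of microfilaments. ACTB and ACTG1 are the cytoplasmic actins present in nearly every cell, while ACTA2 and ACTG2 are the smooth muscle actins. ACTA2 marks the contractile state of fibroblasts known as the myofibroblast. Transgelin (TAGLN), calponin (CNN1), caldesmon (CALD1) and the tropomyosins (TPM1, TPM2) bind along the filament, and MYL9 is the regulatory light chain of smooth muscle and non-muscle myosin. Many of these genes are known targets of serum response factor (SRF) and its actin-sensing coactivators of the MRTF family.

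On GRCh37, ACTA2 spans chr10:90694831-90751096 on the minus strand and ACTG2 spans chr2:74119441-74146992 on the plus strand. ACTB lies at chr7:5566040-5603533 and ACTG1 at chr17:79476439-79490873, both on the minus strand. TAGLN is at chr11:117070086-117078180, CNN1 at chr19:11649582-11661138, CALD1 at chr7:134429003-134655480, TPM1 at chr15:63334819-63364114 and MYL9 at chr20:35169900-35179850, all on the plus strand, and TPM2 is at chr9:35681989-35690053 on the minus strand.

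The 4 actins are shown as sequence because their coding regions are close to each other and reads can match several of them. Over 1125 aligned coding bases ACTA2 was 84.6% identical to ACTG2 and 82.0% identical to ACTB, and ACTB was 91.3% identical to ACTG1. The 60 coding bases in which the actins differ least from ACTA2 are printed first, each from the coding strand of 1 exon, with capitals at each base that differs from ACTA2. The stretches are chr10:90695040-90695099 (ACTA2), chr2:74146583-74146642 (ACTG2), chr7:5567439-5567498 (ACTB) and chr17:79477776-79477835 (ACTG1), in GRCh37.
ACTA2: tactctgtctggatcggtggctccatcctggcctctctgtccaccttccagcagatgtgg
ACTG2: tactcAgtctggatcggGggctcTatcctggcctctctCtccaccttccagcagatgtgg
ACTB: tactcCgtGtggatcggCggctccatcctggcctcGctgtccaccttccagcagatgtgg
ACTG1: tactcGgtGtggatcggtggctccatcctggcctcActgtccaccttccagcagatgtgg
The other actins differed from ACTA2 there at 3 or 4 of the 60 bases. In this alignment, made from the last codon backward without gaps, they differed most near the start of the coding region. This stretch is at chr10:90708622-90708681 (ACTA2), chr2:74128442-74128501 (ACTG2), chr7:5569229-5569288 (ACTB) and chr17:79479321-79479380 (ACTG1).
ACTA2: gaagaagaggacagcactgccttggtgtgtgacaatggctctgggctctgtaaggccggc
ACTG2: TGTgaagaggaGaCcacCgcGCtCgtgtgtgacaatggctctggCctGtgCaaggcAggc
ACTB: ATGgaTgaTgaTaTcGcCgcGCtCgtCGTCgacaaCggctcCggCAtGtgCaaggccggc
ACTG1: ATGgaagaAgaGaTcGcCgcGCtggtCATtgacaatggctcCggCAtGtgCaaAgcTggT
In this second stretch ACTG2 differed from ACTA2 at 13 bases, ACTB at 22 and ACTG1 at 21. It begins at coding base 7 of ACTA2, 4 of ACTG2 and 1 of ACTB and ACTG1. With gaps near the first codons, some capitals and these counts could differ, and such an alignment was not made. Of all 30-base windows of the coding region, about the length of a footprint, 1.91% in ACTA2 and 4.00% in ACTG2 occurred without a mismatch in another gene, against 48.9% in ACTB and 35.5% in ACTG1. With 50-base windows the shares were 0% in ACTA2, 0.185% in ACTG2, 19.9% in ACTB and 9.67% in ACTG1. TAGLN, CNN1 and CALD1 had no shared 30-base window, and TPM1, TPM2 and MYL9 had between 1.09% and 3.08%. How reads with several matches were placed was not stated, so the single values of ACTB and ACTG1 are uncertain. The actins are therefore also given summed below, together with the sarcomeric actins ACTA1 and ACTC1. Of the 30-base windows, only 12.7% in ACTB and 11.9% in ACTG1 occurred in another of the 10 genes, ACTA1 or ACTC1. Their other shared windows lie in genes outside the sum, so the sum removes only part of this uncertainty.

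The mRNA libraries held 7902427 to 14144455 reads in genes, a range of 1.79-fold. The footprint libraries held 46239 to 1718521 coding reads, a 37.2-fold range, so that a footprint change is known less exactly than an mRNA change. Coding reads made up only 34.4% of the reads in Ribo-seq young replicate 1 and 15.0% in old replicate 2, and the footprint library of ICM replicate 3 was the shallowest. That library also stood apart in content. For 55 genes other than those described here that were at least 16-fold lower in every ICM mRNA library than in every young one, the ICM mRNA libraries held 2.73% to 2.76% of the young level, while the ICM footprint libraries held 3.42%, 10.4% and 40.2% in replicates 1, 2 and 3. For 20 genes higher in ICM than in young cells by the same rule, footprints in ICM replicate 3 were at 75.0% of the mean of the ICM libraries, against 115% and 110% in replicates 1 and 2. By the same measure young replicate 1 was at 23.0% and old replicate 2 at 18.4%, above the 5.87% to 12.7% of the other young and old footprint libraries. Footprint changes in ICM cells, and the changes in translational efficiency that were called, are therefore also given without ICM replicate 3. All 9 fibroblast markers were detected in all 3 conditions. Summed, they were 32653 to 36817 counts per 1000000 reads (CPM) in young mRNA, 28845 to 33554 CPM in old and 14316 to 14586 CPM in ICM mRNA, and the part of this in the results was not tested. The markers of epithelial, endothelial and blood cells together reached at most 2.36, 4.82 and 0.990 CPM in any mRNA library.

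In ICM-treated cells the mRNA of all 10 genes was lower than in young cells, by 1.68-fold to 15.8-fold. The smooth muscle actins and TAGLN fell most. ACTA2 mRNA was at 888, 851 and 790.3 CPM in young replicates 1 to 3 and at 90.9, 91.6 and 87.6 CPM in ICM replicates, relative to all reads in genes. It fell 9.53-fold, a log2 change of -3.25 (SE 0.07, adjusted p = 2.7e-20). ACTG2 was at 807, 727 and 718 CPM in young cells and at 67.4, 68.4 and 64.8 CPM in ICM, a log2 change of -3.51 (SE 0.07, adjusted p = 4.9e-21). Every ICM library was thus below every young library by a wide margin. TAGLN, an actin-binding protein of early smooth muscle differentiation, was at 2425, 2120 and 2022 CPM in young cells and at 149.9, 139 and 135 CPM in ICM, the largest change of the 10 with a log2 value of -3.98 (SE 0.08, adjusted p = 4.2e-21). All 10 were called lower at an adjusted p under 0.05, where 36.1% of the 13173 genes tested were called lower, and their median log2 change was -1.37 beside -0.01 for all genes. Whether such a change reflects fewer cells that express a gene or less RNA in each cell cannot be told apart in bulk libraries.

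The other filament-binding proteins moved less than TAGLN. CNN1, which restrains the actin-activated myosin motor, was at 235, 220.1 and 198 CPM in young cells and at 48.3, 41.6 and 41.9 CPM in ICM, a log2 change of -2.33 (SE 0.08). TPM1 was at 1107 to 1180.3 CPM against 371 to 412 CPM and changed by -1.55 (SE 0.06) on the log2 scale. CALD1 was at 671 to 694 CPM against 331 to 349.6 CPM and changed by -1.04 (SE 0.06). In each of these 3 genes the replicates of a condition lay close together and the conditions did not overlap. How common this is over all genes was not counted. TPM2 had the smallest fall of the 10, with 2414 to 2707 CPM in young and 1513 to 1568 CPM in ICM cells. MYL9 had 1346 to 1608 CPM in young and 753 to 798 CPM in ICM cells. Their log2 changes were -0.75 (SE 0.06, adjusted p = 2.6e-10) and -0.94 (SE 0.07, adjusted p = 1.5e-10). The tropomyosins and MYL9 have paralogues, but as given above few of their 30-base windows occur in other genes.

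**Figure D1:**
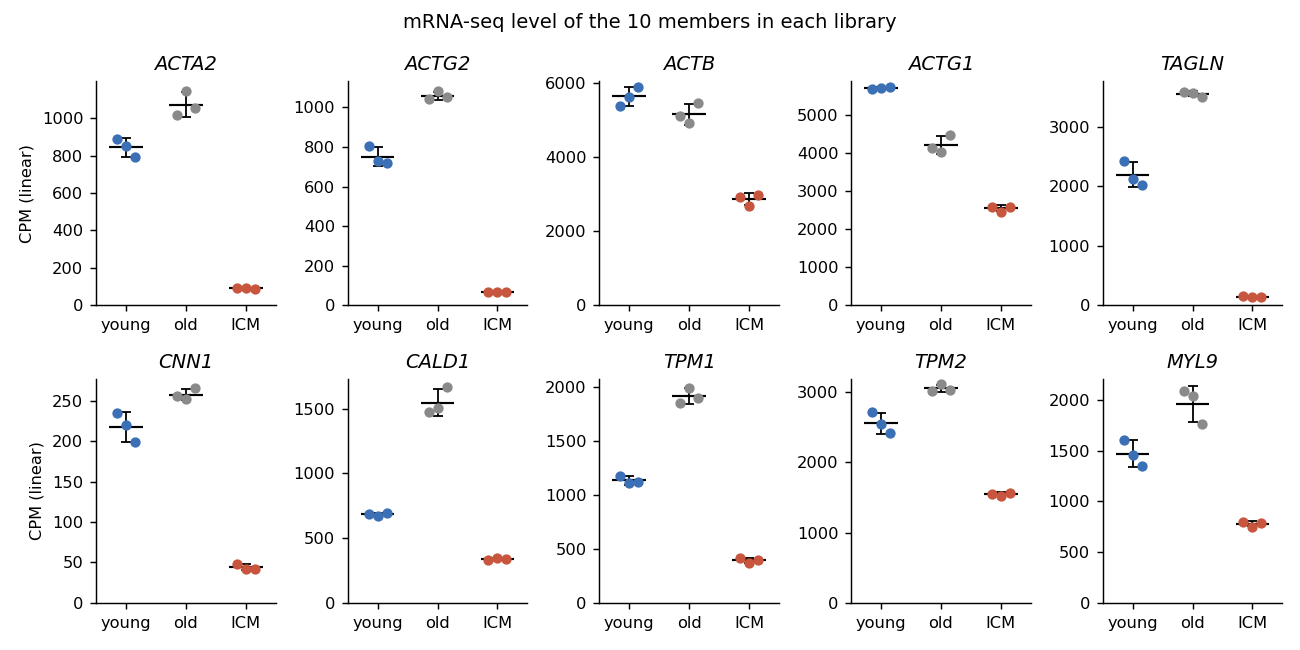
The mRNA level of each of the 10 genes in CPM on a linear axis that starts at 0, with 1 point per library, the mean as a line and the SD (n = 3) as error bars, for young, old and ICM cells. All ICM points lie below all young and old points in every panel, and the old points lie above the young points except in ACTB and ACTG1.

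The cytoplasmic actins also fell, but by less. ACTB mRNA was at 5388, 5629 and 5889.5 CPM in young cells and at 2927, 2689 and 2981 CPM in ICM, and ACTG1 mRNA at 5691, 5710.4 and 5732 CPM and 2594, 2454 and 2595 CPM. The log2 changes were -1.00 (SE 0.07, adjusted p = 5.8e-12) in ACTB and -1.19 (SE 0.06, adjusted p = 1.1e-13) in ACTG1. Both are often used as reference genes that are taken to be constant, and here their levels in ICM were about 2.00-fold and 2.28-fold below those in young cells.

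In old cells the contractile genes went the other way. ACTA2 mRNA was at 1019, 1145 and 1053 CPM and ACTG2 mRNA at 1043, 1082 and 1052 CPM, each above all 3 young libraries. ACTA2 rose 1.36-fold, a log2 change of 0.44 (SE 0.06, adjusted p = 2.7e-06), and ACTG2 rose 1.51-fold, a log2 change of 0.59 (SE 0.06, adjusted p = 2.1e-08). All 5 thin filament proteins rose as well. CALD1 rose most, from 686, 671 and 694 CPM in young replicates to 1472, 1501 and 1663 CPM in old ones, a log2 change of 1.27 (SE 0.06, adjusted p = 9.5e-14). TPM1 reached 1851 to 1996 CPM and TAGLN 3502 to 3582 CPM in old cells, with log2 changes of 0.85 (SE 0.06) and 0.79 (SE 0.07). MYL9, TPM2 and CNN1 rose by 0.51, 0.35 and 0.34 on the log2 scale. The replicates of old cells were above those of young cells without overlap in all of these genes. How many of all genes separate without overlap was not counted.

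The cytoplasmic actins did not share this rise. ACTB was at 5099, 4907 and 5459.5 CPM in old cells, a range that overlapped that of young cells, with a log2 change of -0.03 (SE 0.07, adjusted p = 0.660) and a 95% interval of -0.17 to 0.10. ACTG1 fell to 4133, 4033 and 4485 CPM, a log2 change of -0.34 (SE 0.06, adjusted p = 4.3e-05). Of the 10 genes, 8 were called higher and 1 was called lower in old cells, where 32.4% of all genes tested were called higher and 33.7% lower. The median log2 change was 0.48 beside -0.01 for all genes. From the 3′ UTR reads alone the TPM2 change was -0.22 (adjusted p = 0.219), on 285 such reads in all young and 288 in all old libraries.

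Set against old cells, the ICM-treated cells had lower mRNA of all 10 genes, where 32.6% of all genes tested were called lower. The median was -2.35 on the log2 scale. TAGLN fell 27.3-fold, ACTG2 17.2-fold and ACTA2 12.9-fold, with log2 changes of -4.77 (SE 0.08), -4.11 (SE 0.07) and -3.69 (SE 0.07). CNN1, TPM1 and CALD1 changed by -2.67, -2.40 and -2.31, MYL9 and TPM2 by -1.45 and -1.10, and ACTB and ACTG1 by -0.97 and -0.85 on that scale. In all 10 genes no ICM library reached the lowest old library. The share of all genes whose libraries lie apart in this way was not counted.

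Footprints in the coding sequence gave the same directions with a smaller range. In ICM cells ACTA2 footprints were at 236, 323 and 458 CPM (relative to all coding reads) in replicates 1 to 3, from 53.0, 25.5 and 21.2 estimated reads, and at 968, 1097 and 1153 CPM in young cells. The log2 change was -1.86 (SE 0.23, adjusted p = 8.4e-08). ACTG2 footprints were at 382, 264 and 1189 CPM in ICM, from 86.0, 20.8 and 55.0 reads, and at 1182, 1449 and 1540.2 CPM in young cells, a log2 change of -1.47 (SE 0.27, adjusted p = 6.8e-05) that DESeq2 gave as -1.25 (SE 0.52, adjusted p = 0.0827) and did not call. ICM replicate 3 was thus just above the lowest young library for ACTG2, whereas ICM replicates 1 and 2 were far below all 3. TAGLN footprints were at 313, 298 and 941 CPM in ICM and at 2968, 2649 and 2485 CPM in young cells, with ICM replicate 3 again the highest of the ICM libraries and all of them below young. The log2 change was -2.61 (SE 0.25, adjusted p = 5.6e-10). Without ICM replicate 3 the changes of ACTA2, ACTG2 and TAGLN were -2.10, -2.12 and -3.17, all called.

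CALD1 and TPM1 footprints changed by -1.31 and -1.36 on the log2 scale, and by -1.61 and -1.63 without ICM replicate 3. CNN1 footprints were at 35.5, 21.1 and 43.3 CPM in ICM cells, from only 8, 1.67 and 2 estimated reads, and at 257, 170.3 and 216 CPM in young cells, so that the log2 change of -2.55 (SE 0.39) rests on few ICM reads. TPM2 footprints were at 2199 to 2475 CPM in ICM and 3109 to 3597 CPM in young cells, and MYL9 footprints at 779 to 912 CPM and 919 to 1366 CPM. Their log2 changes were -0.51 (SE 0.16, adjusted p = 0.0134) and -0.59 (SE 0.19, adjusted p = 0.0173). The TPM2 call was lost without young replicate 2 (adjusted p = 0.0682), and the MYL9 call without young replicate 2 (adjusted p = 0.0732), young replicate 3 (adjusted p = 0.115) or ICM replicate 1 (adjusted p = 0.0679) and with the replicate number as a block (adjusted p = 0.0554). ACTG1 footprints were at 4509 to 5605 CPM in young and 2987 to 3601 CPM in ICM cells, a log2 change of -0.61 (SE 0.15, adjusted p = 0.00307). ACTB footprints did not pass the test: they were at 4386, 4891 and 4815 CPM in young and 3450.5, 3775 and 4080.3 CPM in ICM cells, a log2 change of -0.34 (SE 0.15, adjusted p = 0.0831). Without young replicate 1, one of the libraries low in coding reads, ACTB was called lower (-0.47, adjusted p = 0.0302), and so it was without young replicate 1 and old replicate 2 together (-0.53, adjusted p = 0.00267). In all, 9 of the 10 genes were called lower in footprints, CNN1 with its few reads among them, where 12.9% of the 4643 genes tested were called lower. The count was 9 as well without ICM replicate 3, where 13.8% of all genes tested were called lower. The changes in that fit were -0.73 in ACTG1, -0.53 in TPM2, -0.63 in MYL9 and -2.68 in CNN1, while ACTB was at -0.46 (adjusted p = 0.0551). With all libraries the median log2 change was -1.34 beside 0.00 for all genes.

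**Figure D2:**
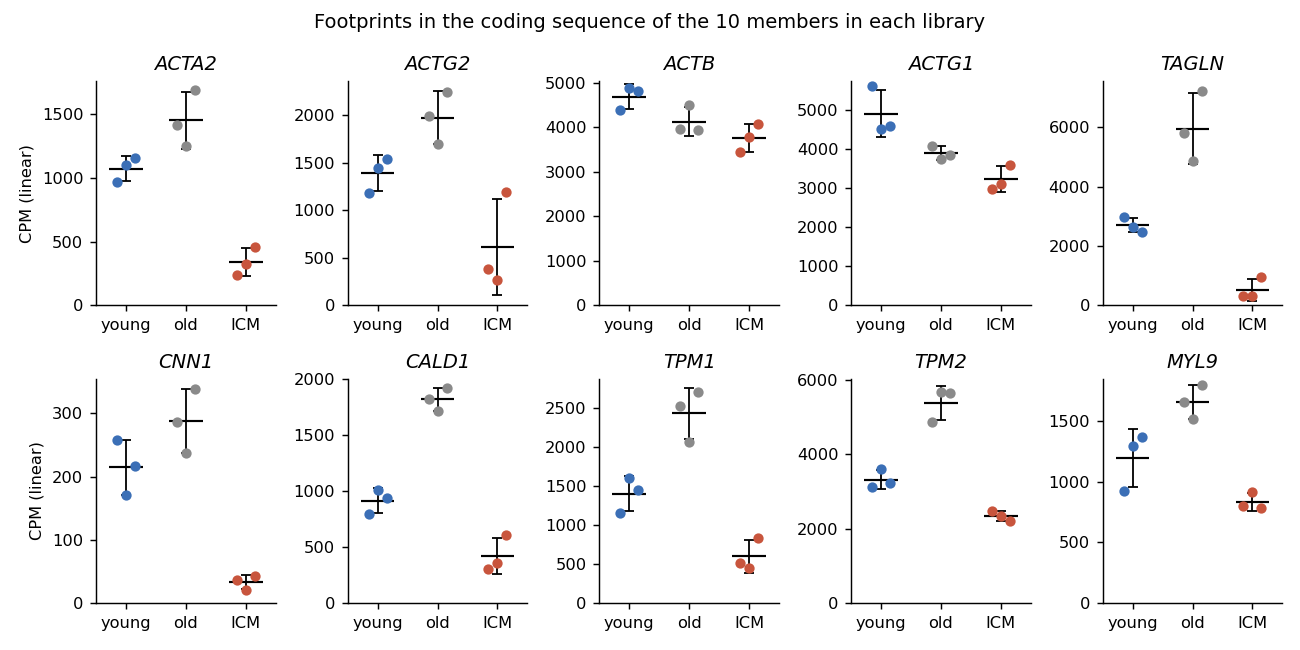
Footprints in the coding sequence of each gene in CPM on a linear axis that starts at 0, with 1 point per library in the order of replicates 1 to 3, the mean as a line and the SD (n = 3) as error bars. The third ICM point lies above the other ICM points in every panel except TPM2 and MYL9.

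In old cells TAGLN footprints rose most, from 2968, 2649 and 2485 CPM in young replicates to 5814, 4853 and 7209 CPM, a log2 change of 1.27 (SE 0.20, adjusted p = 6.1e-06). CALD1, TPM1 and TPM2 footprints rose by 1.07, 0.88 and 0.79 on the log2 scale, and these 3 genes and TAGLN kept their calls in all 20 alternative settings tried. ACTA2 footprints were at 1414, 1249 and 1686 CPM in old cells, above the young range, with a log2 change of 0.54 (SE 0.17, adjusted p = 0.0150). ACTG2, CNN1 and MYL9 changed by 0.60 (SE 0.22, adjusted p = 0.0300), 0.70 (SE 0.19, adjusted p = 0.00447) and 0.54 (SE 0.17, adjusted p = 0.0113). The young and old ranges of CNN1 overlapped. ACTB and ACTG1 footprints did not pass the test, with log2 changes of -0.10 (SE 0.15, adjusted p = 0.595) and -0.22 (SE 0.15, adjusted p = 0.261). So 8 of the 10 genes were called higher, where 19.3% of all genes tested were called higher, and the median was 0.65 beside 0.02 for all genes. Leaving out young replicate 2, young replicate 3 or old replicate 3 each left 4 genes called, and those were TAGLN, CALD1, TPM1 and TPM2. Over all genes 273 of 3909, 282 of 3925 and 389 of 3962 were called higher in these fits.

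Between ICM-treated and old cells 8 of the 10 genes were called lower in footprints, where 7.62% of all genes tested were called lower. TAGLN changed by -3.88 (SE 0.25), CNN1 by -3.25 (SE 0.37), ACTA2 by -2.40 (SE 0.22), CALD1 by -2.38 (SE 0.21), TPM1 by -2.24 (SE 0.21) and ACTG2 by -2.07 (SE 0.27) on the log2 scale. TPM2 and MYL9 changed by -1.29 and -1.12. Without ICM replicate 3 the changes were -4.47 in TAGLN, -3.40 in CNN1, -2.66 in ACTA2, -2.69 in CALD1, -2.53 in TPM1, -2.74 in ACTG2, -1.34 in TPM2 and -1.18 in MYL9, all called. The footprint changes of ACTB and ACTG1 with all libraries were -0.24 (SE 0.15, adjusted p = 0.327) and -0.39 (SE 0.15, adjusted p = 0.0887), and both missed the threshold. ACTG1 was called lower without ICM replicate 3 (-0.55, adjusted p = 0.0367), without old replicate 2 (-0.58, adjusted p = 0.0159) and without young replicate 1 and old replicate 2 together (-0.62, adjusted p = 0.00061). ACTB was called lower with ICM replicate 3, young replicate 1 and old replicate 2 all left out (-0.39, adjusted p = 0.0181), but not without ICM replicate 3 alone (-0.37, adjusted p = 0.182).

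**Figure D3:**
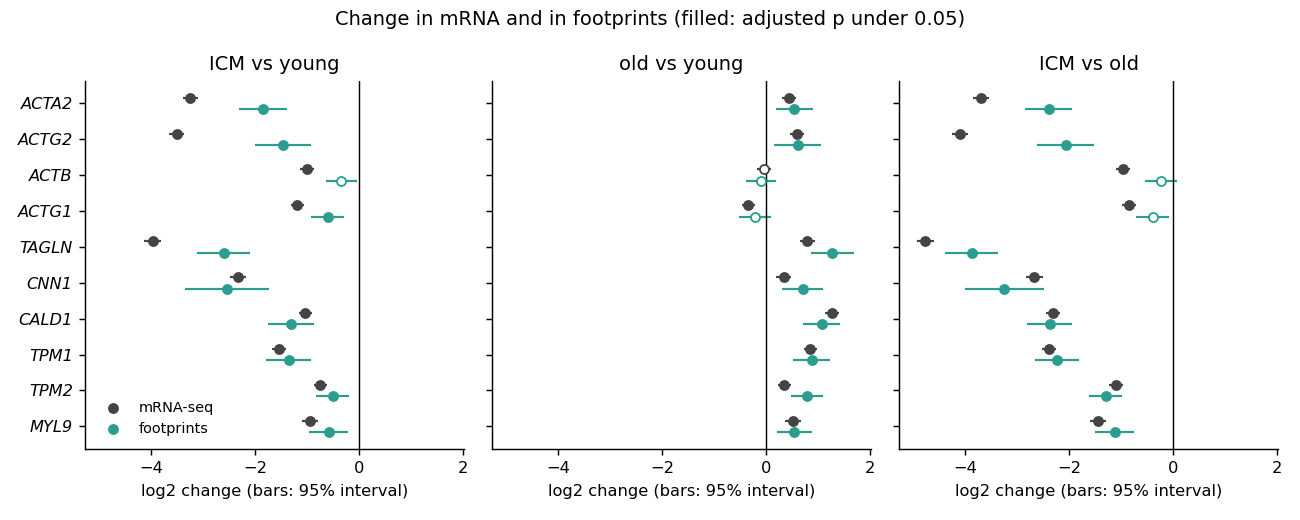
The log2 change in mRNA (dark) and in footprints (green) of each gene for the 3 comparisons, with 95% intervals, where filled points passed an adjusted p under 0.05. ACTA2, ACTG2 and TAGLN are the genes whose mRNA points lie farthest left of their footprint points in ICM against young, with a change in translational efficiency of 1.37, 1.99 and 1.32.

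Because some reads of the actins match more than 1 of them, the 6 actins were summed before the fit. Summed actin mRNA was at 12805, 12947 and 13161 CPM in young cells, 11325, 11198 and 12079 CPM in old and 5689, 5312 and 5739.5 CPM in ICM cells. The sum changed in ICM against young cells by -1.24 (SE 0.06, adjusted p = 5.2e-14) on the log2 scale, and in ICM against old cells by -1.17 (SE 0.06, adjusted p = 2.2e-13). The change in old against young cells, -0.07 (SE 0.06, adjusted p = 0.295) with a 95% interval of -0.20 to 0.05, missed the threshold. In footprints the sum was at 12265 to 12498 CPM in young, 11793 to 12225 CPM in old and 7244 to 9628 CPM in ICM cells, before TMM scaling, and changed by -0.62 (SE 0.15, adjusted p = 0.00145) in ICM against young, by 0.05 (SE 0.14, adjusted p = 0.815) in old against young and by -0.67 (SE 0.15, adjusted p = 0.00103) in ICM against old cells. The changes in ICM were -0.80 against young and -0.87 against old cells without ICM replicate 3, both called.

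The smooth muscle and sarcomeric actins and the cytoplasmic actins were also summed apart, and the difference between these sums was not tested. The smooth muscle and sarcomeric sum changed in mRNA by -3.31 (SE 0.07) in ICM against young and by 0.51 (SE 0.06) in old against young cells, and the cytoplasmic sum by -1.09 (SE 0.06) and -0.18 (SE 0.06). In footprints the values were -1.41 (SE 0.22) and 0.58 (SE 0.19) for the former and -0.49 (SE 0.14) and -0.17 (SE 0.14) for the latter, of which the last missed the threshold (adjusted p = 0.343). The smooth muscle and sarcomeric footprints were at 807, 825 and 1946 CPM in ICM replicates 1 to 3, and without replicate 3 that sum changed by -1.86 and the cytoplasmic sum by -0.59 in ICM against young cells, both called.

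The make-up of the actin pool is given by the share of each gene in the reads of all 6. ACTA2 and ACTG2 together gave 16.1% ± 1.21 (SD, n = 3) of the coding mRNA reads of the 6 actins in young cells, 24.0% ± 2.06 in old and 3.62% ± 0.313 in ICM cells. In footprints they gave 19.9% ± 2.35 in young, 28.6% ± 3.61 in old and 11.1% ± 5.24 in ICM cells, where ICM replicates 1 to 3 held 8.53%, 7.61% and 17.1%. No ICM library reached the lowest young one in either assay. In footprints, however, ICM replicate 3 (17.1%, on 76.2 reads) was nearly level with young replicate 1 (17.2%, on 117 reads). ACTB held 41.5% of the coding mRNA reads in young, 41.1% in old and 50.7% in ICM cells, and ACTG1 held 42.1%, 34.5% and 45.4%. Reads in the 5′ UTR of ACTA2 and ACTG2 gave 12.2%, 16.1% and 3.22% of all 5′ UTR reads of the actins in young, old and ICM mRNA, the same order as in the coding sequence. With 3 libraries against 3 an exact two-sided permutation test cannot go below p = 0.1, so no test is given for these shares.

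**Figure D4:**
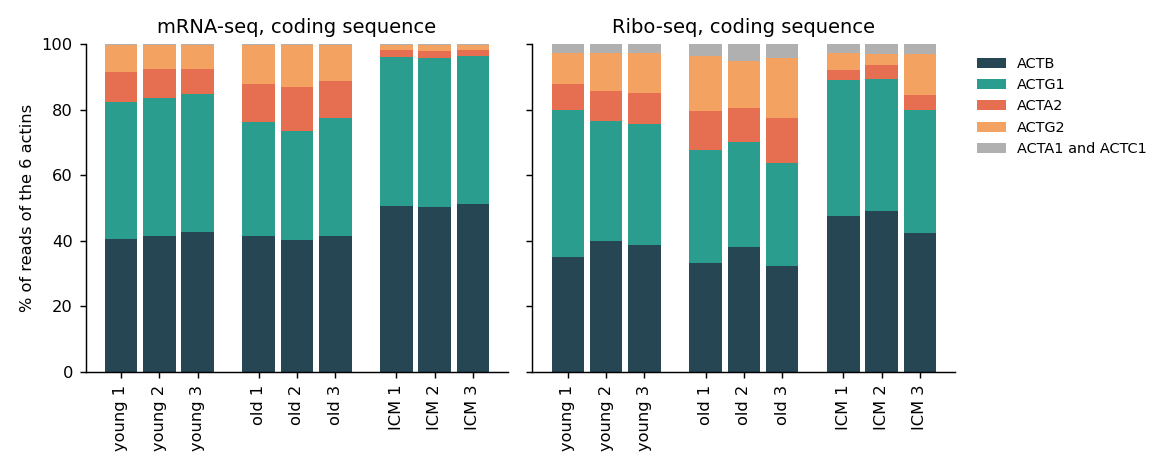
The share of each actin in the coding reads of the 6 actins, in percent, with 1 stacked bar per library for mRNA-seq (left) and Ribo-seq (right). ACTA2 and ACTG2 together make up 3.28% to 3.90% of each ICM mRNA bar and 7.61% to 17.1% of each ICM footprint bar.

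The sarcomeric actins ACTA1 and ACTC1, the actins of skeletal and heart muscle, had 511 and 403 coding reads in the young mRNA libraries in all. ACTA1 had 0 UTR reads in every mRNA library and ACTC1 had 2, both in old cells. A count of 0 allows up to 3 reads. They held 0.357% of coding actin reads in young mRNA but 2.73% in young footprints, and their values may rest on reads of the other actins. ACTC1 mRNA changed by -2.98 in ICM against young, by 0.45 in old against young and by -3.43 in ICM against old, and ACTA1 mRNA by -1.10, -0.27 and -0.83 on the log2 scale, all called.

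Footprint and mRNA levels were next set against each other within each lysate. The ratio of footprint to mRNA level in the coding sequence was 0.79, 0.96 and 1.11 for ACTA2 in young lysates 1 to 3, 0.99, 0.75 and 1.12 in old and 2.00, 2.81 and 4.41 in ICM lysates. For ACTG2 it was 1.08, 1.47 and 1.58 in young, 1.35, 1.08 and 1.52 in old and 4.02, 2.76 and 13.6 in ICM lysates. Every ICM lysate was above every young and old lysate in both genes, and ICM lysate 3 was the highest. TAGLN ratios were 1.41, 1.39 and 1.37 in young, 1.86, 1.50 and 2.22 in old and 2.62, 2.89 and 8.56 in ICM lysates, and ACTB ratios were 0.81, 0.89 and 0.84 in young, 0.76, 0.91 and 0.71 in old and 1.18, 1.39 and 1.37 in ICM lysates. In these 2 genes, too, the ICM lysates did not overlap the others, and neither did they in ACTG1, where ICM ratios were 1.13 to 1.37 and young and old ratios 0.799 to 1.00 and 0.804 to 0.945. By contrast CNN1 ratios spanned 0.748 to 1.08 in young and 0.52 to 0.98 in ICM lysates, and those of CALD1, TPM1, TPM2 and MYL9 overlapped between ICM and young lysates. The share of all genes whose ICM ratios lie apart from the others was not counted.

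Translational efficiency, the footprint change beyond the mRNA change, was taken from an interaction term fitted to all 18 libraries. In ICM against young cells it rose in 4 of the 10 genes, where 1.36% of the 4618 genes tested were called higher. ACTG2 changed by 1.99 (95% interval 1.40 to 2.59, adjusted p = 1.6e-05) on the log2 scale, ACTA2 by 1.37 (95% interval 0.85 to 1.89, adjusted p = 6.9e-04), TAGLN by 1.32 (95% interval 0.75 to 1.88, adjusted p = 0.00396) and ACTB by 0.66 (95% interval 0.33 to 1.00, adjusted p = 0.0214). In these 4 genes footprints were thus lower by less than mRNA was. ACTG1 just missed the threshold with 0.58 (95% interval 0.24 to 0.92, adjusted p = 0.0564). The values of CNN1, CALD1, TPM1, TPM2 and MYL9 lay between -0.32 and 0.33, with none called. The median over the 10 genes was 0.46 beside 0.06 for all genes.

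These values depended on the ICM footprint libraries. Without ICM replicate 3 the changes were 1.35 in ACTG2 and 1.11 in ACTA2, both still called, and 0.74 in TAGLN (adjusted p = 0.125) and 0.57 in ACTB (adjusted p = 0.105), no longer called. With ICM lysate 1 as the only ICM lysate, and assumed to vary like the other groups, ACTG2 changed by 1.56 (adjusted p = 0.00326), ACTA2 by 0.97 (adjusted p = 0.153), TAGLN by 0.75 (adjusted p = 0.319) and ACTB by 0.50 (adjusted p = 0.461). All 4 kept their direction. The ACTB call was lost in 12 of 21 alternative settings and the TAGLN call in 5, while the ACTG2 call was kept in all 21.

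In ICM against old cells translational efficiency rose in 3 of the 10 genes, where 0.152% of all genes tested were called higher. ACTG2 changed by 2.00 (95% interval 1.41 to 2.60, adjusted p = 1.0e-04), ACTA2 by 1.28 (95% interval 0.76 to 1.80, adjusted p = 0.00955) and ACTB by 0.73 (95% interval 0.40 to 1.06, adjusted p = 0.0347). Without ICM replicate 3, ACTG2 changed by 1.34 and was still called, and ACTA2 changed by 1.00 (adjusted p = 0.0890) and ACTB by 0.62 (adjusted p = 0.15), neither of them called. Without old replicate 1, ACTA2 changed by 1.31 (adjusted p = 0.0790), and without each of 8 of the 9 lysates in turn the ACTB call was lost. In old against young cells edgeR called 0 of the 10 genes, where 1.43% of all genes tested were called in either direction. TAGLN (0.44) and TPM2 (0.43) had an unadjusted p under 0.05, and DESeq2 called 0.

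**Figure D5:**
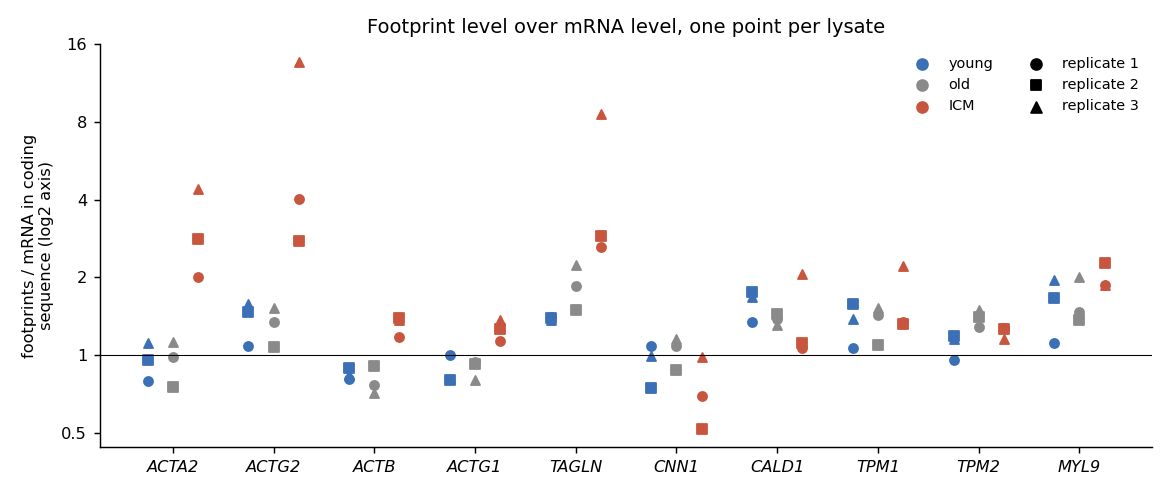
The ratio of footprint to mRNA level in the coding sequence of each gene on a log2 axis, with 1 point per lysate, coloured by condition and shaped by replicate. In ACTA2, ACTG2, TAGLN and ACTB the ICM points lie above the young and old points, and ICM replicate 3 (triangle) reaches 13.6 in ACTG2.

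For the summed actins translational efficiency changed by 0.62 (95% interval 0.29 to 0.95, adjusted p = 0.0303) in ICM against young cells, 0.12 (95% interval -0.20 to 0.44, adjusted p = 0.798) in old against young and 0.50 (95% interval 0.17 to 0.83, adjusted p = 0.205) in ICM against old cells. The first of these missed the threshold in 8 of the 9 fits that left out 1 lysate, with values of 0.46 to 0.62, and it was 0.46 (adjusted p = 0.197) without ICM replicate 3. The smooth muscle and sarcomeric sum changed by 1.86 (95% interval 1.38 to 2.34, adjusted p = 8.6e-07) in ICM against young and by 1.80 (95% interval 1.32 to 2.27, adjusted p = 2.6e-05) in ICM against old cells. These changes were 1.43 and 1.33 without ICM replicate 3, both called. With ICM lysate 1 as the only ICM lysate the changes of this sum were 1.46 and 1.39. The sum includes ACTA1 and ACTC1, whose values may rest on reads of the other actins. In ICM replicate 1 they held 2.61% of the actin footprints, beside 8.53% for ACTA2 and ACTG2. In its coding mRNA reads the shares were 0.257% and 3.67%. The part of this in the change of the sum was not tested.

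Levels can be compared between genes only per length of coding sequence, here as coding reads per kilobase per 1000000 coding reads. In young mRNA ACTG1 (5008 ± 35.6, mean ± SD, n = 3) and ACTB (4935 ± 155) came first, with ranges that overlapped. TPM2 (3556 ± 263) and TAGLN (3221 ± 252) followed and also overlapped. Then came MYL9 (1488), TPM1 (1229), ACTA2 (1003) and ACTG2 (901), where the ranges of ACTA2 and ACTG2 overlapped. CNN1 (255) and CALD1 (242) were lowest and overlapped each other. CALD1 was scaled by the 2379 coding bases of its canonical transcript. Which CALD1 transcripts these cells used was not tested, and its place in each condition rests on that length. In old mRNA TAGLN led with 5311 ± 99.3, above every library value of ACTB (4639.7 ± 260.3). In ICM mRNA TAGLN was sixth with 184 ± 13.8, behind ACTB (2554 ± 129), ACTG1, TPM2, MYL9 and TPM1. ACTA2 (99.1 ± 6.39) and ACTG2 (82.1 ± 4.05) followed CALD1 (126), and only CNN1 (50.9) was lower.

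In footprints per length TAGLN held 4478 ± 407 in young and 9882 ± 1964 in old cells. In young cells its range overlapped those of ACTG1, ACTB and TPM2, and in old cells it exceeded the next gene, TPM2 (6323 ± 538), in every library. In ICM cells ACTB (3349.9 ± 280), ACTG1 (2873 ± 289) and TPM2 (2742 ± 162) led, with neighbouring ranges that overlapped, and TAGLN was at 858 ± 608, with 519.5, 493 and 1560.2 in ICM replicates 1 to 3.

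The parts of a transcript mostly gave the same picture. In ICM against young cells the 5′ UTR reads alone gave log2 changes of -2.74 in ACTA2, -3.74 in ACTG2 and -4.48 in TAGLN. Only 62 of the ACTA2 reads in all young mRNA libraries and 5 in all ICM libraries lay in the listed 3′ UTR, and ACTG2 had 0 there in both, which allows up to 3 reads, so that the 3′ ends of these transcripts are hardly covered by the table. In old against young cells the 5′ UTR change of ACTA2 was 0.16 (adjusted p = 0.359), that of CNN1 0.15 (adjusted p = 0.398) and that of TPM2 0.16 (adjusted p = 0.341), and none of these passed the test.

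ACTA2-AS1, a transcript on the opposite strand, covers 38.25% of the exon bases of ACTA2 on GRCh37. It had 299.6 ± 32.9 (SD, n = 3) reads per 1000000 reads in genes in young mRNA, 382 ± 21.2 in old and 41.8 ± 3.28 in ICM mRNA, and 0 reads in all footprint libraries, which allows up to 3 reads. Since it was not stated whether counting used strand, these reads and those of ACTA2 cannot be told apart. PCSK7 covers 59.0% of the exon bases but 3.32% of the coding bases of TAGLN from the opposite strand. The 3 listed pseudogenes of ACTB and ACTG1 held reads equal to 3.21% to 3.92% of those of the cytoplasmic actins in mRNA and 2.65% to 6.04% in footprints.

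Promoters are shown because SRF, of which many of these genes are known targets, binds a sequence called the CArG box. RefSeq promoters on GRCh38.p14, from 250 bases before to 50 after each start, were listed for 7 of the 10 genes, and those of ACTB, TAGLN and MYL9 were not in the table. The box was searched without a mismatch, as CC, then only A or T, then GG. On either strand, 2 of the 7 genes held such a CArG box in a listed promoter, where 1.60% of all 27305 genes did. Of all 35116 promoters 1.29% held one. ACTG2 had 1 box that began 110 bases and 1 that began 73 bases before its start, and ACTG1 had 1 that began 94 bases before. They are printed with flanks at chr2:73892873-73892932 and chr2:73892910-73892969 on the plus strand and chr17:81512859-81512918 on the minus strand of GRCh38.p14, with the box in capitals.
ACTG2, box farther from the start: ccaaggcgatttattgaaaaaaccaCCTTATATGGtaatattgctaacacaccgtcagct
ACTG2, box nearer to the start: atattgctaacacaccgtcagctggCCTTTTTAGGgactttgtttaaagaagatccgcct
ACTG1: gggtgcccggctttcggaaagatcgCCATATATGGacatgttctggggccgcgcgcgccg
The ACTG2 windows overlap each other. No box of this exact form was found in these windows of ACTA2, CALD1, CNN1, TPM1 and TPM2. A box that departs from this form at any base would be missed, and nothing is said of sequence outside the windows.

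Over the 9 mRNA libraries, the genes whose pattern was most like that of ACTA2 among 10814 genes were ACTG2, SEPT11, TAGLN, PTX3 and CNN1, with Pearson correlations of 0.998 to 0.999 of the log2 level. Those most like ACTB were POTEM, COL1A1, CSPG4, CEP170 and FRMD6, from 0.994 to 0.999. Of the 30-base coding windows of ACTC1, 3.27% occur in POTEM, and whether POTEM shares reads with ACTB was not tested. ACTG1 came at rank 230 for ACTB, with 0.966. The 9 libraries share 3 conditions, so that these values are a description.

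The wider contractile pathway was followed in 60 further genes, of which 59 were tested in mRNA. In ICM against young cells 41 fell and 11 rose, where 36.1% of all genes tested were called lower and 34.9% higher. In old against young 25 rose and 17 fell, where 32.4% of all genes were called higher and 33.7% lower. In ICM against old 46 fell and 7 rose, where 32.6% of all genes were called lower and 30.7% higher. Their median log2 changes were -0.58, 0.11 and -0.73. In footprints 22 of 53 tested fell and 5 rose in ICM against young, beside 12.9% lower and 13.7% higher over all genes. The old cells had 15 higher and 7 lower than young cells, beside 19.3% and 17.0%, and in ICM against old 23 fell and 3 rose, beside 7.62% and 5.79%. Without ICM replicate 3, 24 of 56 tested fell and 4 rose in ICM against young, beside 13.8% lower and 10.3% higher over all genes in that fit. In ICM against old cells 29 fell and 2 rose there, beside 8.11% and 4.51%. The mRNA counts of the separate lists below are to be read against the same shares over all genes.

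Among 8 non-muscle paralogues of the filament proteins and light chains, 6 fell in ICM against young cells (36.1% over all genes) and all 8 fell against old cells (32.6%). CNN2, the calponin of non-muscle cells, went from 705 to 281 CPM (log2 change -1.35) and TPM4 changed by -1.14 in ICM against young. Against old cells CNN2 changed by -0.97 and TAGLN2 by -0.79. In old against young cells 5 rose and 2 fell, led by the light chains MYL12A (0.83) and MYL12B (0.42).

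Of 12 myosin motors and filament crosslinkers, 8 fell and 2 rose in ICM against young cells, beside 36.1% lower and 34.9% higher over all genes. MYLK, the kinase that phosphorylates the regulatory light chain, went from 952 to 242 CPM, a log2 change of -2.00, and its change against old cells was -1.91. The non-muscle myosin heavy chain MYH10 fell in both ICM (-1.75) and old cells (-1.60) against young, and its footprints changed by -1.61 and -1.43, both called, the former being -1.88 and called without ICM replicate 3. In ICM against old 10 of the 12 fell, beside 32.6% of all genes. The 5 that rose and 4 that fell in old against young cells were near the 32.4% and 33.7% over all genes.

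The later genes of smooth muscle differentiation did not all follow the smooth muscle actins. Of 9 tested, 5 fell and 4 rose in ICM against young cells, a split not far from the 36.1% and 34.9% of all genes called lower and higher. The smooth muscle myosin heavy chain MYH11 changed by -1.70, and HSPB6, a small heat shock protein of muscle, rose from 157 to 594 CPM, a log2 change of 1.90 (SE 0.10, adjusted p = 7.9e-14). HSPB6 footprints rose as well, by 2.09 (SE 0.23, adjusted p = 1.5e-08), and by 2.10 without ICM replicate 3. In old against young cells 5 rose and 1 fell, beside 32.4% and 33.7% over all genes. SYNPO2, an actin-bundling protein, rose from 12.4 to 123 CPM (3.41 (SE 0.09, adjusted p = 9.4e-19) on the log2 scale), and MYOCD, a coactivator of SRF in smooth muscle, rose by 1.14. Both were also higher in ICM than in young cells, MYOCD by 0.94 (SE 0.08, adjusted p = 7.2e-10) and SYNPO2 by 0.74 (SE 0.10, adjusted p = 1.1e-06). Against old cells, ICM cells had less SYNPO2 (-2.67) and more HSPB6 (1.97), with 7 of the 9 genes lower and 2 higher.

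Of 16 genes for the turnover of actin monomers and filaments, 12 fell and 3 rose in ICM against young cells, and 14 fell and 2 rose in ICM against old cells, beside 36.1% and 32.6% of all genes called lower. The old cells had 6 higher and 4 lower than young cells, near or below the 32.4% and 33.7% over all genes. The formins DIAPH3 and DIAPH1, which nucleate filaments, changed by -1.88 and -1.45 in ICM against young cells. DIAPH3 also fell in old cells (-1.07), while the filament-severing protein GSN rose there (0.70, with 1.09 in footprints). Against old cells, DIAPH1 (-1.23) and the monomer-binding peptide TMSB4X (-1.07) were lower in ICM cells.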

How the data were processed

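Sample titles gave the groups and replicate numbers. The deposited tables hold estimated counts per gene symbol, not scaled to depth, with a column each for reads in the CDS, in either UTR and in several other transcript classes. The labels' processing notes name GRCh37, STAR 2.6.0c, featureCounts, DESeq2 and deepTools without a role, and the aligner, annotation, strand setting and placement of reads with several matches of these tables were not given in the sources used here.

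As in the study's methods, Ribo-seq was counted over the CDS alone, and mRNA-seq over the CDS with both UTRs. Counts were rounded and tested with edgeR 4.0.16 in R 4.3.3 (quasi-likelihood F-test, two-sided, TMM scaling, filterByExpr) in 1 fit per assay of all 9 libraries. P-values were adjusted over all genes by the Benjamini-Hochberg method, and a gene was called at an adjusted p under 0.05. Translational efficiency was the assay by condition interaction, fitted over 18 libraries with a block for each lysate because the methods state that a lysate gave both of its libraries. Deviations of such pairs correlated across genes with r between -0.0795 and 0.136. DESeq2 1.42.0 was an alternative. Genes other than the 10 were named by a rule, which took the 2 called genes of each list with the largest mRNA change per comparison and a mean of at least 5 CPM, ACTA1 and ACTC1, and the 5 genes most correlated with ACTA2 and with ACTB. Some results that this rule selects, and those of one list, are not reported here. The members and lists were chosen with earlier results of these data known.

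On simulated data with 200 genes changed 2-fold in ICM against young cells, the fit recovered 100% in mRNA-seq (12996 genes), 43% in Ribo-seq (4279 genes) and 38% in translational efficiency (4254 genes). The 200 were drawn from genes past the count filter in both assays, so the 100% does not cover genes with few mRNA reads. No library was simulated to stand apart as ICM replicate 3 does. Positions, coding lengths, shared windows and actin sequences came from GRCh37 with the GENCODE annotation lifted to it, in place of RefSeq protein lengths, and promoters from RefSeq on GRCh38.p14. Since the build of the tables was not given, coordinates describe the genes and not the reads. Counts of 0 and their limits cover counting error only.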

Additional observations from a re-analysis of the deposited data

Results flagged for a closer look

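A test of the difference between the assays, which compares the footprint change with the mRNA change of the same lysates, singled out ACTG2 (1.99), ACTA2 (1.37), TAGLN (1.32) and ACTB (0.66) in ICM against young cells on the log2 scale. The same test singled out ACTG2 (2.00), ACTA2 (1.28) and ACTB (0.73) in ICM against old cells. In each case mRNA fell by more than footprints did, and ICM replicate 3, the shallowest footprint library, had the highest ratio of footprints to mRNA in ACTA2, ACTG2 and TAGLN. Its footprints of 55 other genes that are low in ICM mRNA were at 40.2% of the young mean, against 3.42% and 10.4% in ICM replicates 1 and 2, and the part of this in the 7 values was not tested.

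ACTA2-AS1 reads, which lie in the columns of non-coding transcripts that no comparison used, had a mean of 382 per 1000000 reads in genes in old mRNA and 299.6 in young mRNA. This difference was not tested.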

How the results depend on the processing

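In ICM against young and ICM against old cells, all 10 genes stayed called lower in mRNA under every alternative that gave a value (ACTG2 had too few 3′ UTR reads to be tested from them). In mRNA of old against young cells, 9 genes were called in each fit without 1 replicate, where 8058 of 13290 to 8708 of 13313 genes were called. The 3′ UTR reads alone turned TPM2 to -0.22 (adjusted p = 0.219) and gave -0.29 for the summed actins (adjusted p = 0.000399).

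For footprints of old against young cells, 8 genes were called, against 5 with DESeq2, 4 after thinning all libraries to the shallowest and 4 to 8 without 1 replicate. Over all genes, 896 of 4643 were called higher there, against 296 of 4643 with DESeq2 and 91 of 1106 after thinning. Without 1 replicate these were 273 of 3909 to 1282 of 6720. The summed actins there changed by 0.05, by -0.0099 over genes with a mean of at least 50 counts and by -0.032 to 0.18 without 1 replicate. With ICM replicates 2 and 3 left out, a setting chosen after seeing the data, the summed footprints changed by -0.79 against young cells and -0.85 against old cells (both adjusted p = 0.156), and 1 gene, ACTG2, was called in translational efficiency in each of these comparisons. Without 1 replicate, 2 to 4 genes were called in translational efficiency in ICM against young and 1 to 3 in ICM against old cells. Over all genes, 10 of 3890 to 56 of 6687 and 1 of 3949 to 22 of 6687 were called higher in these fits.

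The translational efficiency of the summed actins in ICM against young cells (0.62) was 0.47 with no filter (adjusted p = 0.163), 0.62 with only the compared conditions (adjusted p = 0.0851), 0.48 without young replicate 1 and old replicate 2 (adjusted p = 0.0852), 0.42 without ICM replicates 2 and 3 (adjusted p = 0.584) and 0.46 to 0.62 without 1 replicate. In ICM against old cells DESeq2 gave 0.47 (adjusted p = 0.0399). With ICM replicate 3, young replicate 1 and old replicate 2 all left out, 1 gene was called in old against young cells, TAGLN with 0.60. Over all genes 113 of 7966 were called in that fit. Apart from smaller data in the fits with libraries left out, the cause of these shifts was not tested.

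Same-numbered libraries of different conditions correlated in their deviations with r between -0.0555 and 0.103, so that the numbers were not taken to pair conditions. With the replicate block 10, 9 and 10 genes were called in mRNA-seq in ICM against young, old against young and ICM against old cells. Over all 13173 genes tested, 9407, 8791 and 8398 were called in these fits. In Ribo-seq 8, 6 and 8 genes were called, where 741, 653 and 418 of all 4643 were. Without the lysate block 5 genes rose in translational efficiency in ICM against young cells, ACTG1 among them with 0.59. Of all 4618 genes 188 were called higher without that block, against 63 with it. In data simulated at these depths, genes past the count filter in both assays were given a 2-fold change. Of these genes, 100% were recovered for mRNA-seq, 43% for Ribo-seq and 38% for translational efficiency.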
